A study of Mus musculus with 9 samples.

Results

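The genes described here are 36 mouse genes of DNA repair and of the DNA damage checkpoint, taken by symbol from a table of 48526 genes. Each of the 36 symbols matched 1 row. They fall into 2 classes of 18. The first holds genes of homologous recombination and of the Fanconi pathway. The second holds genes of end joining, mismatch repair, excision repair, damage sensing and the checkpoint. RNA was sequenced from the medial ganglionic eminence (MGE), a part of the ventral telencephalon where many cortical interneurons are born, of C57BL/6 mice at embryonic day 14.5. The 5 knockout libraries, mKO replicates 1 to 5, carried Nkx2.1-cre, Rosa26-YFP and Ctnnb1fl/fl, that is 2 floxed alleles of the beta-catenin gene. The 4 control libraries, mCtrl replicates 1 to 4, also carried Nkx2.1-cre and Rosa26-YFP. Control replicate 4 had 1 floxed allele (Ctnnb1fl/wt) and the other 3 controls had 0. Cre recombinase in these mice follows Nkx2-1 expression, so cells outside that lineage keep the gene. Neither sorting nor the number of embryos behind a library is stated in the labels. P-values here set the difference against the spread of libraries within a group, and that spread may be technical.

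Dividing cells meet DNA damage mostly during replication. Homologous recombination mends broken DNA by copying the sister chromatid, in S and G2 phase, and the Fanconi pathway unhooks crosslinks between the strands and hands the break to recombination. End joining seals broken ends in any cell cycle phase and is the main route for neurons that have left the cycle. The kinases ATM and ATR sense damage and stalled forks and signal through CHK2 and CHK1. Many recombination and checkpoint genes are known targets of E2F factors, which switch on transcription at the entry to S phase. In the embryonic forebrain, loss of several of these genes is known to kill progenitors or newborn neurons.

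Depths inferred from the scaled values were 5120585 to 5569444 reads counted in genes, an inference that is uncertain (see the processing below). In each library 20274 to 22903 genes were above 0. Values are the authors' counts after scaling by size factors, called normalized counts here. Ctnnb1 was at 7103, 7661, 7133, 6572 and 5477 normalized counts in knockout replicates 1 to 5, against 9841, 9960.1, 9967 and 9545 in control replicates 1 to 4. It was thus lower in every knockout library, at 69.1% of the control mean (exact two-sided permutation p = 0.00794, the smallest the design allows). The defining markers of the region were present, among them Nkx2-1 and Lhx6. All 10 genes of the MGE list passed the filter on low values, and their summed level was 30782 to 39137 in knockout and 21240.4 to 35822 in control. In control replicate 1 the 10 dorsal telencephalon markers summed to 2993 and the 8 choroid plexus markers to 3108. The knockouts held 294 to 778 and 218 to 830.5, and the other controls 156 to 286 and 220.1 to 415. The 10 pan-neuronal markers summed to 25958 to 33371 in knockout and 14286 to 17880.0 in control. The 10 radial glia markers summed to 11448 to 14181 in knockout and 18054 to 23836 in control. Such a sum follows its most abundant genes. The mean log2(normalized count + 1) of the radial glia list overlapped, at 9.02 to 9.605 in knockout and 9.49 to 9.87 in control. Log2 fold changes within that list ran from -1.05 to 1.09. In bulk tissue, fewer cells of a type and less RNA per cell cannot be told apart.

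Repair and checkpoint genes were lower in knockout, and none of the 36 was called higher. A gene was tested if it averaged at least 10 normalized counts over the 9 libraries, which 35 of the 36 did. The test was limma on log2(normalized count + 1) over all 13780 such genes, calling genes at a Benjamini-Hochberg adjusted p under 0.05. Of the 35 genes, 27 fell. Without control replicate 1, 24 of these 27 still passed, Rad54b, Xrcc2 and Xrcc5 did not, and Atm, Fancm and Prkdc passed in addition. The same test called 17.3% of all 13780 genes lower and 17.2% higher. The number called higher was 0 by limma, also at an unadjusted p under 0.05. The median log2 fold change of the 35 was -0.80, about 57.5% of the control level, against -0.01 over all genes tested. For 24 of them every knockout library lay below every control, a pattern that 14.6% of all genes tested showed. A log2 fold change of -1 or less together with a call was reached by 10 of the 35, against 1.86% of all genes tested.

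The median change was larger in size in the recombination and Fanconi class than in the other. In the first, 15 of 18 genes fell and the median log2 fold change was -0.93, or 52.5% of the control level. In the other class, 12 of 17 tested genes fell and the median was -0.50, or 70.8% of control. The difference between the classes was not tested, because the genes were chosen with results of these data known. The boundary between them was not sharp. Ung, Chek2, Chek1 and Clspn of the second class fell by over 1 on the log2 scale, whereas Palb2, Fancm and Fancg of the first did not pass. The replication and mitosis lists gave medians of -0.90 and -0.81, with 30 of 30 and 24 of 24 genes lower. The part of these cell cycle genes, and of the higher neuronal and lower radial glia marker sums, in the lower repair transcripts was not tested.

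**Figure D1:**
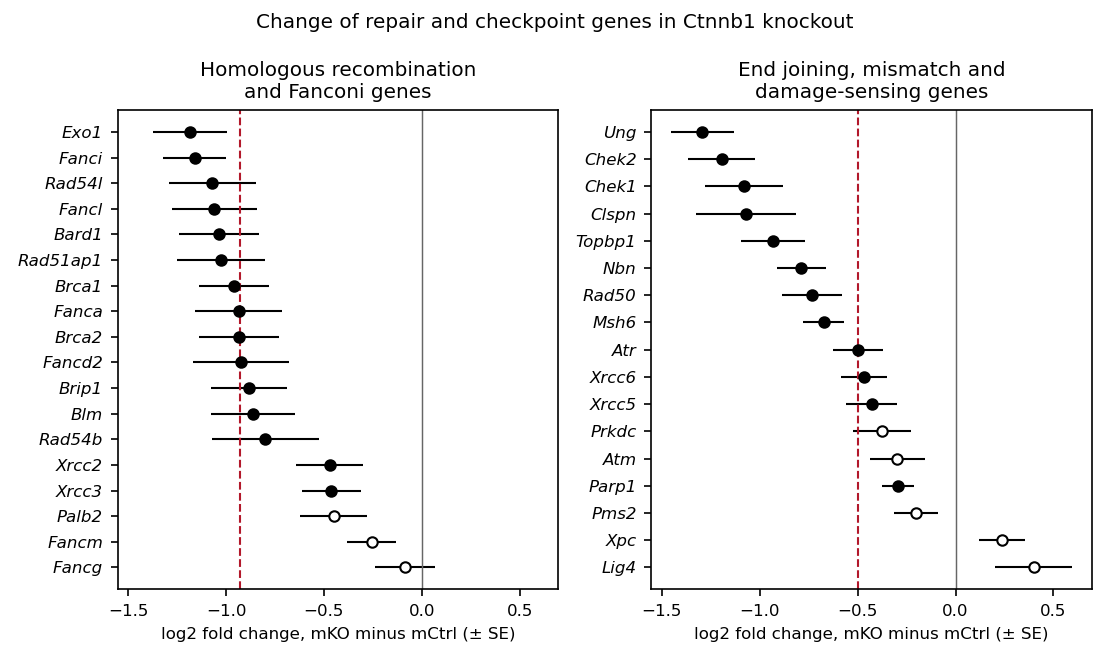
Log2 fold change of the 35 tested genes, mKO minus mCtrl on the log2(normalized count + 1) scale, with its standard error. Filled points passed the test and the dashed line is the median of the class, -0.93 on the left and -0.50 on the right. Lig4 and Xpc are the genes above 0, and neither passed.

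The promoters of the genes are shown here because members that moved together may be compared with members that did not. RefSeq windows (GRCm38.p6) from 250 bases before to 50 bases after the annotated start were found for 28 of the 36 genes. They were searched on both strands for 4 words of E2F sites, TTTCCCGC, TTTCGCGC, TTTGCCGC and TTTGGCGC. Such a word stood in 8 of the 28 genes, or 28.6%. It stood in 4.90% of the 9825 tested genes with a window and in 2.60% of all 27025 genes in the table. By class the count was 3 of 14 recombination and Fanconi genes and 5 of 14 in the other class. It was 7 of the 21 genes called lower with a window and 1 of 6 that did not pass. Among the other 1692 tested genes called lower with a window, 8.57% held such a word, and among the replication genes 11 of 24 did. The word CCAAT stood in 17 of the 28 genes (60.7%), against 43.3% of tested genes. It stood in 12 of the 21 genes called lower (57.1%) and in 4 of the 6 that did not pass (66.7%). TTTGAA, the core of the cell cycle element CHR, stood in 1, Bard1 (3.57%, against 13.7% of tested genes). No member held more than 1 E2F word. A match describes the letters only and is no evidence of binding. Shorter or looser forms of the E2F site were not searched, so a window without a word may still hold one. Windows with a word are shown first, on the gene's own strand from 5′ to 3′, for 3 genes called lower (Brca2, Chek2 and Topbp1) and for Fancg, which did not pass. Capitals mark the E2F word, on either strand. These 4 were picked after their values were seen.
Brca2 chr5:150522371-150522670 (plus strand): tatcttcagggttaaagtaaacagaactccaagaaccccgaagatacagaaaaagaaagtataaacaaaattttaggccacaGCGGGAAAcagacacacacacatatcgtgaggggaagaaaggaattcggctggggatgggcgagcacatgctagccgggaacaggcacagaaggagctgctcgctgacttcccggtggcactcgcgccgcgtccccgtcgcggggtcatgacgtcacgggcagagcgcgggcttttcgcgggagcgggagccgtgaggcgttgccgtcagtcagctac
Chek2 chr5:110839733-110840032 (plus strand): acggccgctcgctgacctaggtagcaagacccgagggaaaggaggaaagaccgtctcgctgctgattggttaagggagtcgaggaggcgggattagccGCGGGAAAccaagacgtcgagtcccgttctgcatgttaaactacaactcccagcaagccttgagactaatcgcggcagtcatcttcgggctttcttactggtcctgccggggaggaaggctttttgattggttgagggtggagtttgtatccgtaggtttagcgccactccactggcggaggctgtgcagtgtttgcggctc
Topbp1 chr9:103305077-103305376 (plus strand): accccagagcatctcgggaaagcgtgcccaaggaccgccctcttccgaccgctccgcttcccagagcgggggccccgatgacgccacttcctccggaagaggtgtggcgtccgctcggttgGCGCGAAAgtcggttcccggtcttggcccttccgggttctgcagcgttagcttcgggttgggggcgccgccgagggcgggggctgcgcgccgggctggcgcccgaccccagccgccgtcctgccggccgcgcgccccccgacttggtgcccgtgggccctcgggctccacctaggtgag
Fancg chr4:43010252-43010551 (minus strand): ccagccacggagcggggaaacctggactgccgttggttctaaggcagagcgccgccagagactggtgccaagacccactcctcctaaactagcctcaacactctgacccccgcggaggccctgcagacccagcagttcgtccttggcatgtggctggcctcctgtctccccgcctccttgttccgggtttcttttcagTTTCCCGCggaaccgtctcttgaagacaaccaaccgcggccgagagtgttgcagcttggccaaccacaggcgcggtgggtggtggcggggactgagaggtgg
The word began 168 bases before the start in Brca2, 152 before it in Chek2, 129 before it in Topbp1 and 52 before it in Fancg. The gene with the smallest p in each class, Fanci and Ung, and the 2 genes with the highest mean normalized count among those that did not pass, Atm and Fancm, held none of the 4 words in this window. Per kilobase of exon, Fancg, which holds a word, was the highest of the genes that did not pass, at 33.9 in control, against 33.3 for Atm and 26.3 for Fancm. The windows are shown for comparison.
Fanci chr7:79392088-79392387 (plus strand): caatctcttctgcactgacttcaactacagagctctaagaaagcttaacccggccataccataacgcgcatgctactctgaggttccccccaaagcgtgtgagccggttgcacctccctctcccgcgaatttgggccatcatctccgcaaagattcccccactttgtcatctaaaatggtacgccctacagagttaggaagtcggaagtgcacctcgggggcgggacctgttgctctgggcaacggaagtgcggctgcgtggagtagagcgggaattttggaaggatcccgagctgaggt
Ung chr5:114130185-114130484 (plus strand): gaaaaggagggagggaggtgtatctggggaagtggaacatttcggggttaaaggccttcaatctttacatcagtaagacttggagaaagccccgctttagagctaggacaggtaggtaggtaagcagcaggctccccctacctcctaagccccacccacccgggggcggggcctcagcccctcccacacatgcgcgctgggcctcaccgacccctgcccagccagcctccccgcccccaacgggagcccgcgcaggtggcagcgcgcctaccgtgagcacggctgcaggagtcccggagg
Atm chr9:53536622-53536921 (minus strand): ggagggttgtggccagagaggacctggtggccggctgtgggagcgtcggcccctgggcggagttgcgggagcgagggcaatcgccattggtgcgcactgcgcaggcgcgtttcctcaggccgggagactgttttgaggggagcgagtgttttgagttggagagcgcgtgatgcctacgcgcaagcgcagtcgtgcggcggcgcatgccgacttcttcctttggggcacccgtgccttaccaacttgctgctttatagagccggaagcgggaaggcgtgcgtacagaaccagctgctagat
Fancm chr12:65075353-65075652 (plus strand): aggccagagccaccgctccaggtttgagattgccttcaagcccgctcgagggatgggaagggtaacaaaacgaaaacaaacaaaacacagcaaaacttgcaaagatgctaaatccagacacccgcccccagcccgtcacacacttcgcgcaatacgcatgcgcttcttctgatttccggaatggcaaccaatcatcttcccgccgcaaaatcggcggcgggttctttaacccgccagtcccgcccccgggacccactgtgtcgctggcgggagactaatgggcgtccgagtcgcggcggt
Fanci and Ung were therefore among the most strongly lowered genes without these letters in the window, and Fancg held them without passing the test.

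Genes of homologous recombination fell in 10 of 11 cases, with a median log2 fold change of -0.93. The breast cancer gene Brca1 (chromosome 11, 101488764 to 101551955, mm10) encodes a ubiquitin ligase subunit that steers breaks into recombination. It stood at 314, 349, 247, 264 and 161 normalized counts in knockout replicates 1 to 5, against 491, 511, 490.4 and 522 in control replicates 1 to 4. The groups did not overlap, and the controls lay within a narrow range while knockout replicate 5 was lowest. The means were 267 ± 71.6 (SD, n = 5) in knockout and 504 ± 15.5 (SD, n = 4) in control, a log2 fold change of -0.96 (SE 0.178, limma adjusted p = 0.00165). Bard1, the partner of Brca1 in the ligase, had 95.9, 122, 70.2, 68.9 and 54.4 normalized counts in the knockouts, against 139, 147, 173 and 200.3 in the controls. Its groups did not overlap either, and the log2 fold change was -1.04 (SE 0.206, with limma's adjusted p at 0.00190).

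Brca2 (chromosome 5, 150522630 to 150570329) encodes a central mediator of recombination, and its promoter is shown above. It was at 224, 267, 148, 185 and 115 normalized counts in knockout and at 332, 317, 384 and 349.8 in control. Every knockout library lay below the controls, and the log2 fold change was -0.93 (SE 0.204, limma adjusted p = 0.00456). Palb2, which bridges Brca1 and Brca2, had 59.3, 69.2, 62.2, 62.2 and 39.3 normalized counts in knockout, against 72.8, 86.4, 75.4 and 81.7 in control. The groups did not overlap, but with a log2 fold change of -0.45 the adjusted p by limma was 0.0541. Without knockout replicate 2 it was 0.0370.

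The nuclease gene Exo1 had a larger decrease than the helicase gene Blm. Exo1 (chromosome 1, 175880581 to 175913489), a nuclease that resects broken ends and also serves mismatch repair, was at 213, 279.8, 166, 173 and 125 normalized counts in knockout, against 419, 411, 369.8 and 488 in control. The highest knockout library lay below the lowest control, and the log2 fold change of -1.18 (SE 0.189, limma adjusted p = 0.000698) was the largest decrease of this class. The RecQ helicase gene Blm, whose product dissolves joined DNA molecules, had a log2 fold change of -0.86, with 279 ± 86.6 normalized counts in knockout (SD, n = 5) and 488 ± 49.1 in control (SD, n = 4). Genes that act in strand invasion fell as well. Rad51ap1, which stimulates that step, had a log2 fold change of -1.03, and the DNA translocase gene Rad54l one of -1.07. Rad54l held 208 ± 71.9 normalized counts in knockout and 417 ± 33.8 in control (SD, n = 5 and 4).

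Some genes of this group were called near the threshold. Rad54b, a homologue of Rad54l, stood at 147, 196, 94.3, 126.3 and 60.5 normalized counts in knockout, against 191, 207, 207 and 205 in control. Knockout replicate 2 reached into the control range, and limma gave an adjusted p of 0.0445 at a log2 fold change of -0.80. Leaving out any control, or knockout replicate 3 or 4, removed the call, at an adjusted p of 0.0673 to 0.0979. The recombination genes Xrcc2 and Xrcc3 had log2 fold changes of -0.47 and -0.46, smaller in size than those of the other called genes of the group. Xrcc2, with 52.4 to 89.4 normalized counts in knockout and 92.7 to 133 in control, had an adjusted p of 0.0461 by limma. The call was lost when any control, or knockout replicate 1, 3, 4 or 5, was left out (adjusted p = 0.0506 to 0.143). Xrcc3 (adjusted p = 0.0263) did not pass without control replicate 3 (0.0879) or knockout replicate 3 (0.0594). Rad54b shares 35.9% of its annotated exon bases with other genes and Rad54l 15.4%, so reads there may be split or discarded in counting.

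Among the 7 Fanconi genes, 5 fell (median -0.93 on the log2 scale). Fanci (chromosome 7, 79391929 to 79450264) and Fancd2 encode the clamp that is ubiquitinated at crosslinks. Fanci was at 111, 132, 77.2, 93.8 and 74.6 normalized counts in knockout replicates 1 to 5, against 208, 189.7, 221 and 242 in control replicates 1 to 4. The groups were well apart, and the log2 fold change was -1.16 (SE 0.162, limma adjusted p = 0.000200). Fancd2 had 186, 290.4, 135, 143 and 103 normalized counts in knockout, against 288, 279, 327 and 335 in control. Here knockout replicate 2 lay within the control range, and the log2 fold change was -0.93 (SE 0.245, limma adjusted p = 0.0141). Fancl, the ubiquitin ligase that marks this clamp, had 77.2, 66.3, 43.1, 54.5 and 31.2 normalized counts in knockout and 102, 111, 105 and 121 in control. Its groups did not overlap, and the log2 fold change was -1.06 (SE 0.219, with limma's adjusted p at 0.00220). Brip1, a helicase that binds Brca1, stood at 112, 87.5, 86.3, 80.4 and 49.4 normalized counts in knockout, against 127, 161, 139 and 174 in control. The log2 fold change was -0.88 (SE 0.195, limma adjusted p = 0.00343), again with no overlap. Of the annotated exon bases, 16.0% in Fanci, 13.7% in Fancl and 10.5% in Fanca are shared with other genes.

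Members of the Fanconi core complex differed from each other. Fanca fell by 0.94 on the log2 scale, with 166 ± 60.2 normalized counts in knockout and 306 ± 41.1 in control (SD, n = 5 and 4), though knockout replicate 2 (259.6) lay above control replicate 1 (248). Fancg, of the same complex, was at 103, 122, 150.5, 133 and 98.7 normalized counts in knockout, against 135, 152, 124 and 104 in control. Those ranges nearly coincided, and the log2 fold change was -0.09 (SE 0.152, limma adjusted p = 0.690). Fancm, a translocase that anchors the complex to DNA, had 257, 264, 209, 223 and 195 normalized counts in knockout and 221, 309, 278 and 290.0 in control. The groups overlapped through control replicate 1, and the log2 fold change was -0.26 (SE 0.124, with limma's adjusted p at 0.125). Without control replicate 1, limma gave Fancm an adjusted p of 0.0380.

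**Figure D2:**
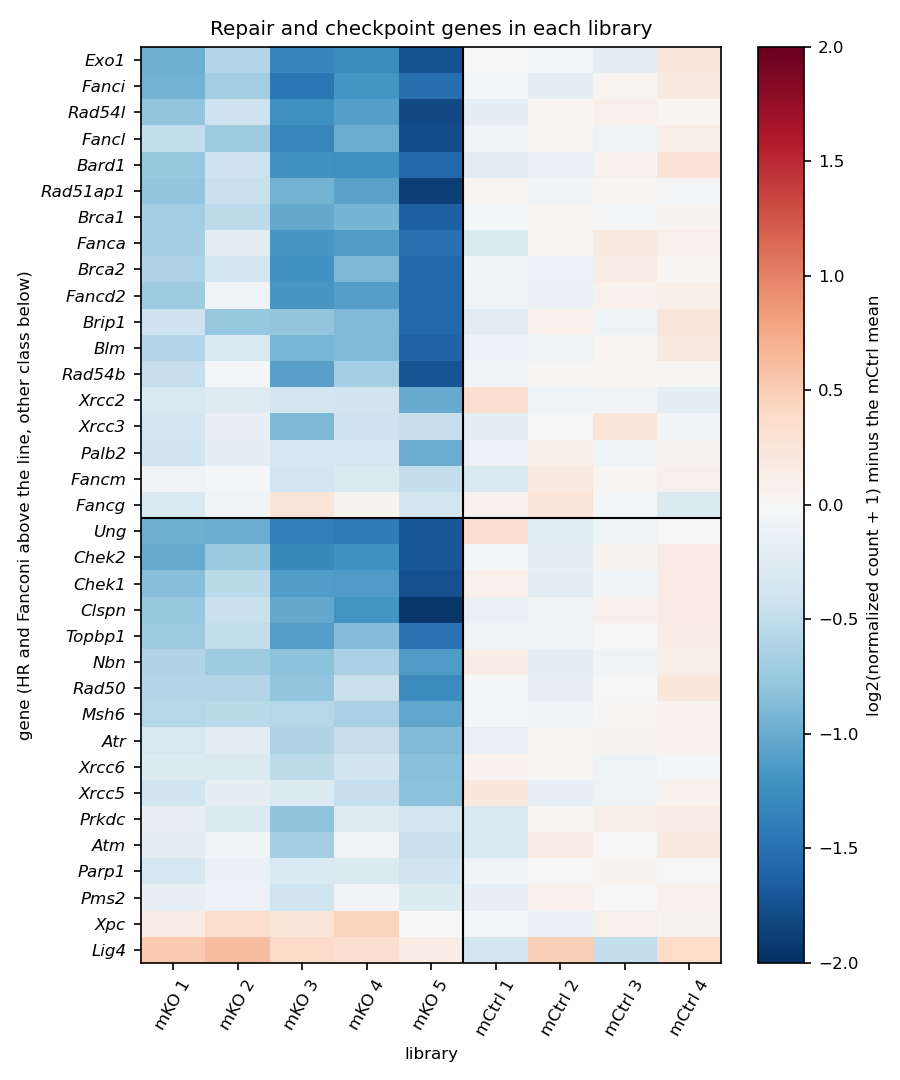
Each cell is the log2(normalized count + 1) of a gene in a library minus the mean of the 4 mCtrl libraries, with 18 recombination and Fanconi genes above the line and 17 genes of the other class below it. Blue is below the mCtrl mean. Knockout replicate 5 is the darkest column and knockout replicate 2 the palest of the mKO columns.

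Sensing and checkpoint genes fell in 7 of 8 tested cases, with a median log2 fold change of -0.86. Of the apical kinase genes Atr fell and Atm did not pass. Atr (chromosome 9, 95857597 to 95951781), which answers to stalled forks, was at 223, 240.4, 184, 203 and 150.1 normalized counts in knockout, against 253, 284, 289 and 292 in control. The groups did not overlap, and the log2 fold change was -0.50 (SE 0.129, limma adjusted p = 0.00849). Atm, which answers to broken ends, was at 292, 328, 213, 324 and 249 normalized counts in knockout and at 273, 376, 339.6 and 388 in control. Control replicate 1 fell among the knockouts, and the log2 fold change of -0.30 did not pass (SE 0.141, with limma's adjusted p at 0.118). Without that control, limma gave Atm an adjusted p of 0.0417. Atrip, the partner of Atr, was not tested: it held 8.90, 5.77, 6.02, 7.65 and 6.05 normalized counts in knockout and 6.06, 5.96, 3.01 and 5.98 in control. Of its annotated exon bases, 16.0% are shared with Trex1 on the same strand, and the part of this in its low count was not tested.

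The effector kinase genes Chek1 and Chek2, and Topbp1 and Clspn, had log2 fold changes from -1.20 to -0.93. Chek1 (chromosome 9, 36708482 to 36727065), the effector kinase of Atr, stood at 213, 266, 177, 176 and 113 normalized counts in knockout, against 412, 335, 369.8 and 433 in control. No knockout library reached the controls, and the knockout mean was 48.7% of the control mean, at a log2 fold change of -1.08 (SE 0.199, limma adjusted p = 0.00164). Chek2 (chromosome 5, 110839979 to 110874145), the effector kinase of Atm, was at 81.1, 97.1, 66.2, 69.8 and 49.4 normalized counts in knockout and at 159, 144, 171 and 184 in control. It had the second largest decrease of the class, with a log2 fold change of -1.20 (SE 0.172, with limma's adjusted p at 0.000233) and no overlap. Topbp1, the activator of Atr, had 924, 1091, 709, 834 and 550.1 normalized counts in knockout, against 1436, 1448, 1545 and 1703 in control. Its log2 fold change was -0.93 (SE 0.162, limma adjusted p = 0.00112), with the groups apart. Clspn, encoding claspin, which hands the signal from Atr to Chek1, had a log2 fold change of -1.07, with 372 ± 132 normalized counts in knockout and 743 ± 78.1 in control (SD, n = 5 and 4).

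The end-binding complex of Mre11, Rad50 and Nbn recruits Atm to breaks. Nbn was at 191, 177, 165, 185 and 132 normalized counts in knockout, against 322, 255, 277 and 316 in control. The groups did not overlap, at a log2 fold change of -0.79 (SE 0.124, limma adjusted p = 0.000398). Rad50 fell by 0.73 on the log2 scale, with 158 ± 32.2 normalized counts in knockout and 259.8 ± 28.3 in control (SD, n = 5 and 4).

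Genes of end joining showed smaller differences, and 2 of 4 fell. Xrcc5 and Xrcc6 encode the Ku heterodimer that caps broken ends. Xrcc6 had a log2 fold change of -0.47 (limma adjusted p = 0.00749) and Xrcc5 of -0.43 (0.0189), and neither overlapped between the groups. Xrcc5 did not pass without control replicate 1 (adjusted p = 0.0601) or control replicate 4 (0.0540). Prkdc, the catalytic kinase that Ku recruits, was at 147, 135, 94.3, 137 and 127 normalized counts in knockout, against 132, 168, 181 and 182 in control. Control replicate 1 lay among the knockouts, and the log2 fold change was -0.38 (SE 0.146, limma adjusted p = 0.0586). The adjusted p for Prkdc was 0.0250 without that control and 0.0487 without knockout replicate 1. Lig4 (chromosome 8, 9969049 to 9977686), the ligase of the final step, had the highest log2 fold change of the 35 genes, 0.40 (SE 0.196, with limma's adjusted p at 0.128). It held 121, 129, 110.3, 105 and 93.7 normalized counts in knockout, against 64.7, 117, 60.3 and 109 in control. The controls split, with replicates 1 and 3 low and replicates 2 and 4 within the knockout range. Without control replicate 2, limma called Lig4 higher (adjusted p = 0.0383).

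Of the 2 mismatch repair genes, Msh6 fell and Pms2 did not pass. Msh6 (chromosome 17, 87975062 to 87990892), which recognises mismatches behind the replication fork, was at 583, 599, 583, 550.2 and 423 normalized counts in knockout, against 857, 821, 884 and 909.8 in control. The groups were far apart for the size of the change, a log2 fold change of -0.67 (SE 0.104, limma adjusted p = 0.000361). Pms2, part of the nuclease that acts after recognition, had 153, 158, 129, 166 and 141 normalized counts in knockout and 153, 183, 169.8 and 181 in control. Its log2 fold change was -0.20 (SE 0.113, with limma's adjusted p at 0.184), with overlap.

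The 3 genes of excision and single-strand break repair spanned almost the whole range of change. Ung (chromosome 5, 114130386 to 114139323), the glycosylase that removes uracil from DNA, had the largest decrease of all 35 genes. It was at 144, 143, 108, 106 and 86.6 normalized counts in knockout, against 355, 241, 271 and 283 in control. Every knockout library was below every control, and the log2 fold change was -1.29 (SE 0.159, limma adjusted p = 8.97e-05). Parp1, a sensor of strand breaks, fell by 0.29 on the log2 scale, with 2439 ± 171 normalized counts in knockout and 2985 ± 105 in control (SD, n = 5 and 4, limma adjusted p = 0.0117). Xpc, which recognises bulky lesions, was at 168, 193, 179, 207 and 150.1 normalized counts in knockout, against 149, 138, 162 and 157 in control. Only knockout replicate 5 overlapped the controls, and the log2 fold change of 0.24 did not pass (SE 0.117, with limma's adjusted p at 0.130).

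**Figure D3:**
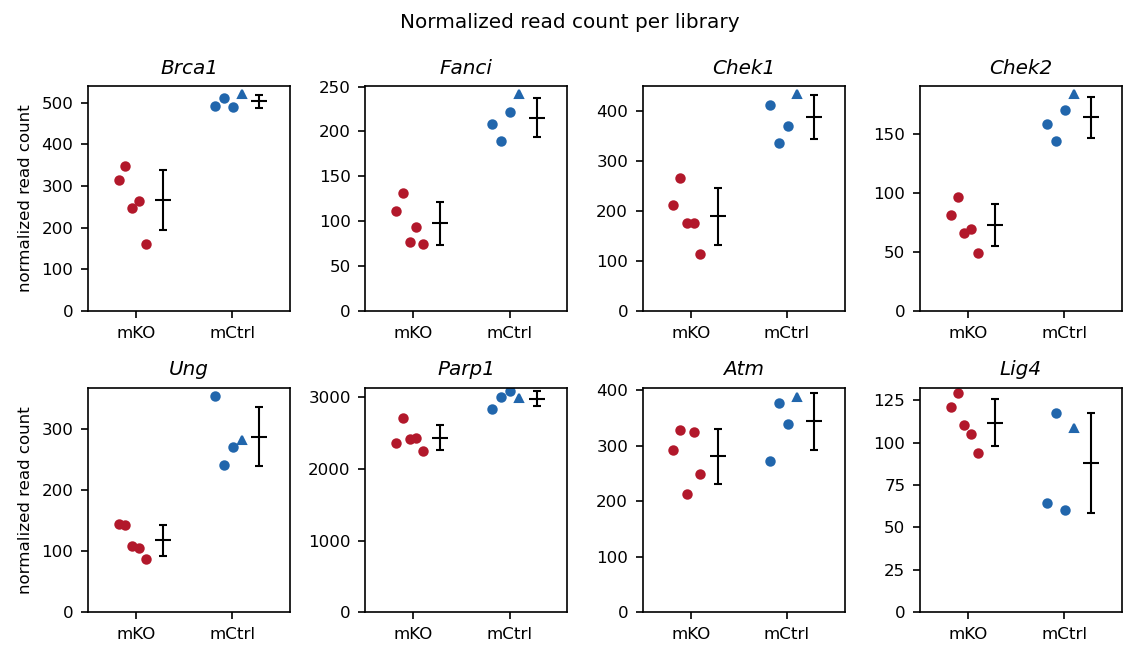
Normalized counts of 8 genes by library, mKO left of mCtrl, with the mean and SD beside the points. The triangle is control replicate 4, which carries 1 floxed allele. The groups do not overlap for Brca1, Fanci, Chek1, Chek2, Ung and Parp1, and they overlap for Atm and Lig4.

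The knockout libraries were ordered alike across the genes. Knockout replicate 5 was the lowest of the 5 knockouts for 31 of the 35 tested genes, and replicate 3 for the other 4. Knockout replicate 2 was the highest for 25 genes, replicate 1 for 6, replicate 4 for 3 and replicate 3 for 1. The same libraries were at the ends for Ctnnb1 itself, with 5477 normalized counts in knockout replicate 5 and 7661 in replicate 2. They were also the lowest and highest knockouts in mean log2(normalized count + 1) of the replication genes (7.87 and 8.86) and mitosis genes (8.96 and 9.88). For the pan-neuronal markers the order was reversed, with 10.08 in knockout replicate 5 and 9.49 in replicate 2. What sets this order was not tested. The mean log2(normalized count + 1) of the 18 recombination and Fanconi genes was 7.22, 7.45, 6.88, 6.98 and 6.42 in knockout replicates 1 to 5. In control replicates 1 to 4 it was 7.71, 7.80, 7.83 and 7.86. The SD between knockouts was 0.387 and that between controls 0.0654. With 5 knockouts, no correlation with Ctnnb1 is given. Without knockout replicate 5 the medians of the classes were -0.77 and -0.40, with 14 and 12 genes lower.

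Set against the other class within each library, the recombination and Fanconi genes averaged lower in knockout than in control. Their mean log2 level minus that of the other class was -0.78, -0.67, -0.90, -0.93 and -1.07 in knockout replicates 1 to 5, against -0.67, -0.59, -0.58 and -0.69 in control replicates 1 to 4. The groups overlapped through knockout replicate 2, and the widest gap was in knockout replicate 5. Set against the 30 replication genes instead, the same 18 genes differed by -1.43 ± 0.0835 in knockout and -1.51 ± 0.116 in control (SD, n = 5 and 4), ranges that overlapped. The 17 other genes differed from the replication genes by -0.56 ± 0.165 in knockout and -0.87 ± 0.0677 in control, and these ranges did not overlap. These differences of mean log2 levels are descriptions and were not tested.

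**Figure D4:**
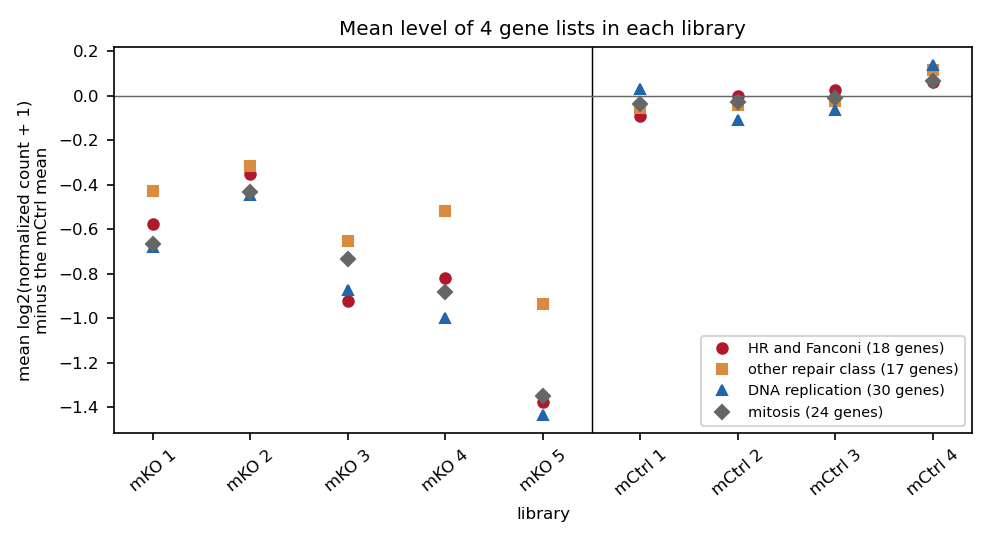
Mean log2(normalized count + 1) of 4 gene lists in each library, minus the mean of the mCtrl libraries, mKO libraries left of mCtrl. The recombination and Fanconi genes lie near the replication and mitosis genes in each knockout, and the other repair class lies above all 3. Knockout replicate 5 is lowest on every list shown.

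Levels were compared between genes as normalized counts per kilobase of annotated exon. The length used is that of all annotated exons of a gene together, 23629 bases for Atr. A gene whose transcripts use only part of these bases therefore reads too low. In control the 36 genes spanned 0.73 to 564, with a median of 38.0. Parp1 was the most abundant, at 461 ± 32.4 per kilobase in knockout and 564 ± 19.8 in control (SD, n = 5 and 4, as for the levels that follow). Msh6 followed at 125.99 ± 16.5 in knockout and 199.8 ± 8.71 in control, and Topbp1 at 73.2 ± 18.3 and 137 ± 10.98. In control, Xrcc5 (130.2 ± 15.6), Nbn (116 ± 12.6) and Clspn (103 ± 10.9) came next, and each mean from Xrcc5 down lay less than 1 SD of the gene before it below that gene. Palb2, Atr and Prkdc lay at the low end of the tested genes, between 10.8 and 12.6 per kilobase in control. The size of the change did not follow the level in a simple order. The abundant Parp1 changed by -0.29 (log2). Of the genes low per kilobase, Prkdc and Palb2 did not pass and Atr fell (-0.50). The largest decreases were those of Ung, Chek2 and Exo1, at 52.6, 54.8 and 50.1 per kilobase in control.

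**Figure D5:**
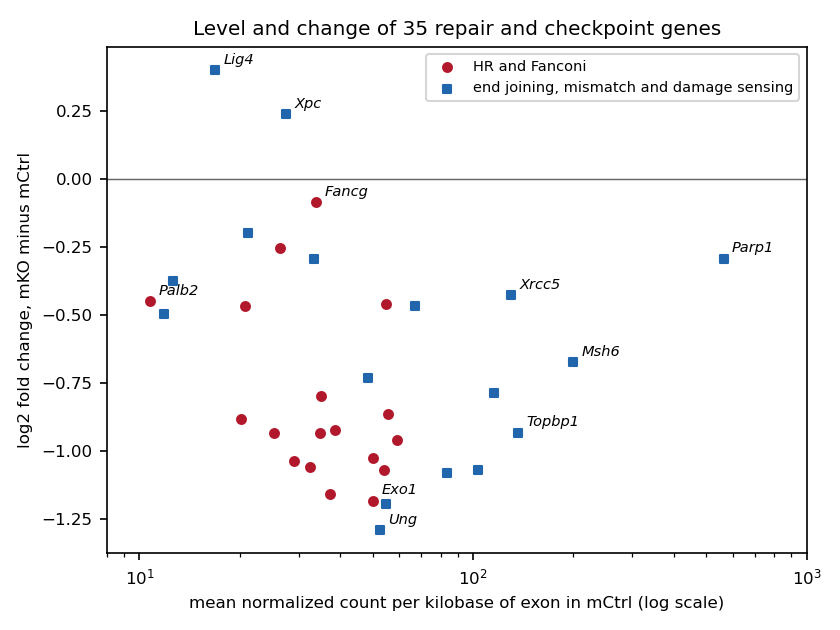
Log2 fold change, mKO minus mCtrl, of the 35 tested genes against their mean normalized count per kilobase of exon in mCtrl, on a log axis. Parp1, at 564 per kilobase, changed little, and the largest decreases (Ung, Chek2 and Exo1) lie in the middle of the range of levels.

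Among further genes of the same pathways, more fell than rose. Of 33 further recombination and Fanconi genes, 32 were tested, 17 fell (53.1%) and 3 rose (9.38%). Their median log2 fold change was -0.44. Of all genes tested, 17.3% were called lower and 17.2% higher. Rpa2 and Rpa1, subunits of the complex that coats single-stranded DNA, had log2 fold changes of -1.01 and -0.97. Usp1, which removes ubiquitin from the Fanconi clamp, had 502 normalized counts in knockout and 986 in control (limma adjusted p = 0.000296). The genes that rose in that list were Faap100 (0.44), Rad52 (0.41) and Slx4 (0.35). Slx4 had an adjusted p of 0.0312 by limma and lost the call when control replicate 1, 3 or 4, or knockout replicate 3, 4 or 5, was left out (0.0519 to 0.109). Of 52 further genes of end joining, mismatch repair, excision repair and sensing, 21 fell (40.4%) and 5 rose (9.62%), with a median of -0.32. In both lists the share that rose was thus below that of all genes tested. Xrcc1, a scaffold of single-strand break repair, had a log2 fold change of -0.57 and the checkpoint kinase Wee1 one of -0.85. The end joining factor Paxx (0.86), the repair polymerase gene Polb (0.37) and the nuclease gene Ercc5 (0.37) rose.

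Target genes of p53, which damage signalling switches on, were called about as often as genes in general. Of 17 tested, 3 rose and 3 fell (17.6% each way, against 17.2% and 17.3% of all genes tested), and the median was -0.05 on the log2 scale. Plk2 (1.70), Trp53inp1 (0.51) and Sesn1 (0.37) rose, and Btg2 (-0.74), Rps27l (-0.57) and Aen (-0.43) fell. Sesn1 did not pass by limma without control replicate 2 (adjusted p = 0.0517), control replicate 4 (0.0829) or knockout replicate 3 (0.0566). The canonical targets Cdkn1a, Mdm2 and Bax were among the 11 that did not pass.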

How the data were processed

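Per the labels' protocols, NEBNext Ultra libraries were made from MGE total RNA (500 ng). What the authors deposited is a signal for each gene: counts that the authors scaled by size factors. DESeq2, HTSeq 0.9.1, TopHat2 2.1.1, mm10 and R 3.4.0 are named in the submitters' processing notes. Their roles, the annotation release and the strand setting were not found in the labels or files, so overlapping genes on opposite strands may share reads. Each library's values were whole multiples of 1 step (largest deviation 5.1e-06 of a read), which gave the size factors (0.989 to 1.05) and depths. Most size factors lie so near 1 that whole reads could not be told reliably from scaled values, and no count model was fitted.

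Symbols matched 48058 of 48526 identifiers, and positions and exon lengths are from GENCODE M21 (GRCm38, the build called mm10). Genes averaging at least 10 normalized counts were tested with limma 3.58.1 in R 4.3.3 (statmod 1.5.0; trended prior, robust) on log2(value + 1), two-sided, 5 knockouts against 4 controls. The fold change on this scale understates that of low genes. On simulated data for 13780 genes, log2 changes of -1 were recovered for 94% of 50 genes and of -2 for 98%, with 4 false calls among 196. The simulated noise was independent between genes and had the same spread in both groups, and no low gene was changed. In the libraries here the repair genes varied together, and their class means spread more in knockout than in control. The simulated rates may therefore not hold for these data. With the inferred reads taken as counts, no pair of libraries in a group differed by as little as sampling noise (chi-square over its degrees of freedom at least 3.62).

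The genes and lists were chosen with earlier results of these data known. Per-library values are given for the 6 genes with the smallest p in each class, for up to 4 per class that did not pass, and for Chek1, Chek2, Atm, Atr, Brca1 and Brca2; from each other list of repair or p53 genes, up to 3 called genes per direction with the smallest p are named. Others, among them Lig4, Rad54b and Atrip, were named after their values were seen. One gene that this rule names is not reported here. Motif searches, exon sharing and levels per kilobase were computed with Python 3.11.15. Alternatives were TMM or upper-quartile scaling, a pseudocount of 0.5 or 8, a minimum mean of 50 or none, limma with neither trended nor robust prior, library weights, a replicate block, a length and GC correction (loess, span 0.5), leaving out each library, controls 2 and 3 only, and an absolute log2 fold change of at least 1.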

Additional observations from a re-analysis of the deposited data

Results flagged for a closer look

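For 5 genes, 1 library stood far from the rest of its group by Dixon's criterion. Chance meets it in about 1 of 20 groups, or 6.3 times over the 63 quantities examined in 2 groups each, so the number found is no more than chance gives. Xrcc2 was at 52.4 normalized counts in knockout replicate 5, against 80.4 to 89.4 in the other knockouts. Msh6 was at 423 in the same library, against 550.2 to 599 in the other knockouts. For Rad54b, control replicate 1 had 191, below the 205 to 207 of the remaining controls. Atrip was at 3.01 in control replicate 3, against 5.96 to 6.06 in the other controls. For Polb, control replicate 4, with 1 floxed allele, had 275, above the 259 to 261 of the remaining controls.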

How the results depend on the processing

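Of 27 genes called lower, 17 kept the call under all 20 alternatives with a value for each gene; Rad54b lost it under 9 and Xrcc2 under 12. Leaving out 1 library at a time gave 24 to 28 genes lower and 0 to 1 higher (Lig4, without control replicate 2). By class it gave 12 to 16 and 11 to 13 lower, 0 to 1 higher in the second class. With controls 2 and 3 only, 18 genes were lower, 9 in each class, and 9 no longer passed: Blm (log2 fold change -0.83, adjusted p = 0.0921), Brca2 (-0.95, 0.0548), Clspn (-1.06, 0.0896), Fancd2 (-0.91, 0.109), Rad51ap1 (-1.02, 0.0562), Rad54b (-0.83, 0.182), Xrcc2 (-0.41, 0.192), Xrcc5 (-0.29, 0.210) and Xrcc6 (-0.44, 0.0638). That comparison also gave 0 higher further recombination and Fanconi genes, 13 lower and 2 higher further genes of the other class, 17 lower replication genes and 1 lower p53 target, among 1112 lower and 1387 higher genes in all. After the length and GC correction 31 genes were lower, Atm, Prkdc, Fancm, Palb2 and Pms2 among them, and 1 further recombination gene was higher. With an absolute log2 fold change of at least 1, 10 genes were lower, 6 and 4 by class. The further lists then gave 5 and 1 lower and 0 higher, replication 11 lower, mitosis 0 lower, p53 targets 0 lower and 1 higher, and all genes 256 lower and 583 higher. The cause of these shifts was not tested. Same-numbered libraries of the groups did not deviate together (correlations of -0.12 to 0.14, none highest with its own number). No pairing by number was thus seen, though with so few libraries these correlations cannot exclude one. With the replicate block 24 genes were lower, 13 and 11 by class, and 1 further recombination gene was higher. The count models planned as alternatives (edgeR, DESeq2) were not run. The median of all genes was -0.02 with TMM scaling and -0.01 with upper-quartile scaling or the authors' scaling. Inferred depth was alike in the groups and limits the values of Atrip most.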
